A study of Mus musculus with 2 samples.

Results

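The genes described here are the ubiquitin enzymes and deubiquitinases near STAT5 binding regions in mouse effector CD8 T cells. They were chosen by name, as every row of the deposited gene table whose symbol starts with Ube2, Ube3, Ube4, Usp or Rnf (Usp and Rnf followed by a digit), with Usp18 left out. The rule found 41 of the 4934 listed genes: 10 named as conjugating enzymes (Ube2), 20 named as ligases (19 Rnf genes and Ube4a) and 11 named as deubiquitinases (Usp). No symbol starting with Ube3 was listed, though Ube2cbp is also called UBE3D. STAT5 binding was measured by chromatin immunoprecipitation with sequencing (ChIP-seq), and both groups were C57BL/6 OT-I CD8 T cells, whose transgenic receptor recognises the ovalbumin peptide SIINFEKL. All cells had been transferred into host mice, primed there with the peptide plus agonists of CD134 and CD137, and sorted from spleens after 4 days. One group (1 library) was then given 0.5 µg/ml IL-2 in culture for 1 hour, and the control group (1 library) was left without it. The antibody was raised against STAT5, and the labels describe the assay as one for STAT5A. All 7 marker genes of CD8 T cells (such as Cd8a and Cd3e) and none of 5 B cell or 4 myeloid marker genes were listed near a region, although a ChIP table does not measure expression.

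Ubiquitin is a small protein that is attached to other proteins in a cascade. An activating enzyme passes it to a conjugating enzyme, and a ligase then guides it to the substrate, which may be sent to the proteasome or change its partners. Deubiquitinases cut it off again. STAT5 is the transcription factor that the IL-2 receptor activates through JAK kinases, and STAT dimers bind the palindrome TTCNNNGAA. In T cells, ubiquitin ligases and deubiquitinases set the strength of antigen receptor, cytokine and NF-κB signals.

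The values are heights of the STAT5 signal, in the deposited signal units. Each gene has a mean height over its regions in each library and the highest peak over its regions, which equalled the IL-2 height at all 26 genes with 1 region. The 41 genes had 60 regions, with 1 region at those 26 genes, 2 at 11 genes and 3 at 4 genes. All 60 were called in the IL-2 library, and no control interval was called near these genes. There were no replicates, so no difference between the libraries was tested, and the values describe these 2 libraries only. Genes are listed because a region was called near them after IL-2, which favours higher IL-2 values. No 2 of the 41 genes shared a region with each other, but 30 of the 60 regions were also assigned to other listed genes.

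Sequence is shown for the 3 genes whose 250 bases before the RefSeq start (build GRCm38.p6) hold the position of a STAT5 region, to set the STAT palindrome beside the region. RefSeq windows were found for 30 of the 41 genes, 40 windows in all. Capitals mark the motif named for each gene. Rnf115, which encodes a RING ligase and lies head to head with Polr3c, is on chr3:96727361-96727610, plus strand, and its capitals mark TTCNNNGAA from 179 to 171 bases before the start. The region position was 219 bases before that start, 40 bases from the motif. This region lay nearer to the start of Polr3c, 47 bp inside that gene, and was low, with 14 after IL-2 and 5 in control.
Rnf115: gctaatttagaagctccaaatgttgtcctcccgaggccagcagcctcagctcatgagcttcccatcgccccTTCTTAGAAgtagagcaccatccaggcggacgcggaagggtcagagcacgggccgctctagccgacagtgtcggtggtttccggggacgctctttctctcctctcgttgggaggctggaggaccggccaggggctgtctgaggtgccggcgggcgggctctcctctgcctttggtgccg
Usp3, a deubiquitinase of histone H2A, is on chr9:66593116-66593365, minus strand. Its capitals mark the same TTC and GAA arms with 4 bases between them, and the nearer end of this motif was 3 bases from a region 181 bases before the RefSeq start.
Usp3: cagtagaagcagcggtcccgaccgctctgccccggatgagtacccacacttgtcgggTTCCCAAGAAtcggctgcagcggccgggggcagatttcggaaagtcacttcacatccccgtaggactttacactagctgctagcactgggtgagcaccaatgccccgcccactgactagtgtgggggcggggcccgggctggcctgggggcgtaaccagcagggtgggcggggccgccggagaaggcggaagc
Ube2f, the conjugating enzyme of the ubiquitin-like protein NEDD8, is on chr1:91250054-91250303, plus strand, with a region 32 bases before the RefSeq start. Neither palindrome was found in its window, and the capitals mark CCGGAAG, a core bound by ETS factors.
Ube2f: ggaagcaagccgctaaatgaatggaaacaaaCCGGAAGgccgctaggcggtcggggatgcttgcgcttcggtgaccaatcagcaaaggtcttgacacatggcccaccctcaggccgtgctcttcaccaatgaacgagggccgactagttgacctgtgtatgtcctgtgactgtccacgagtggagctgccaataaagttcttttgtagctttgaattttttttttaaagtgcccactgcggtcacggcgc

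TTCNNNGAA stood in 6 of the 40 windows of these genes (Rnf10, Rnf115, Rnf121, Rnf151, Ube2cbp and Ube2d3), which is 15%, against 7.02% of all 32851 RefSeq windows of the same length. Among the 376 windows that hold a STAT5 region of the table, 44.9% had it. The arms 4 bases apart stood in the Usp3 window alone, or 2.5%, against 5.85% of all windows and 7.45% of those 376. CCGGAAG stood in 9 of the 40 windows (22.5%), against 6.91% of all windows and 15.7% of the 376 that hold a region. All RefSeq windows include those of genes not listed near a region, and these shares were not tested. Both palindromes read the same on either strand, and CCGGAAG was searched on both. A match is a description of letters. Of the 6 genes with TTCNNNGAA in a window, only Rnf115 also had a region inside it, and the region of Ube2cbp lay 132 bases past the start.

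In the deposited values, before scaling to equal medians (which turned 18 genes the other way), STAT5 signal was higher after IL-2 at all 41 genes, as at 100% of all listed genes, with a median height of 19 in the IL-2 library (11 to 86) and 5 in the control library (1 to 9). Over all 4934 listed genes the medians were 20.8 in the IL-2 library and 5 in the control library. For the log2 ratio, 5 was added to both heights before dividing IL-2 by control, which understates the fold of low heights. Its median was 1.41 for the 41 genes and 1.42 for all listed genes. A ratio of at least 2 was reached by 31 of the 41 genes (75.6%), against 83.8% of all listed genes, and 5 of these 31 (Rnf10, Rnf138, Rnf151, Ube2cbp and Usp6nl) stood at exactly 2. A ratio of at least 4 was reached by 9 (22.0%), against 23.1% of all listed genes. A ratio of at most 0.5 was found at 0 of the 41 genes, against 0% of all listed genes. The highest peak was at or above the median of the table at 18 of the 41 genes (43.9%), against 50% of all listed genes. On these counts the 41 genes stood close to or below the whole table. When the IL-2 heights were scaled so that both libraries had the same median, the median log2 ratio of all listed genes shifted by -1.33, and 23 of the 41 genes stayed above control after IL-2 while 18 were below it. The share above control over all listed genes was then 58.7%, so the direction at genes of moderate height rests on the scaling between libraries.

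**Figure D1:**
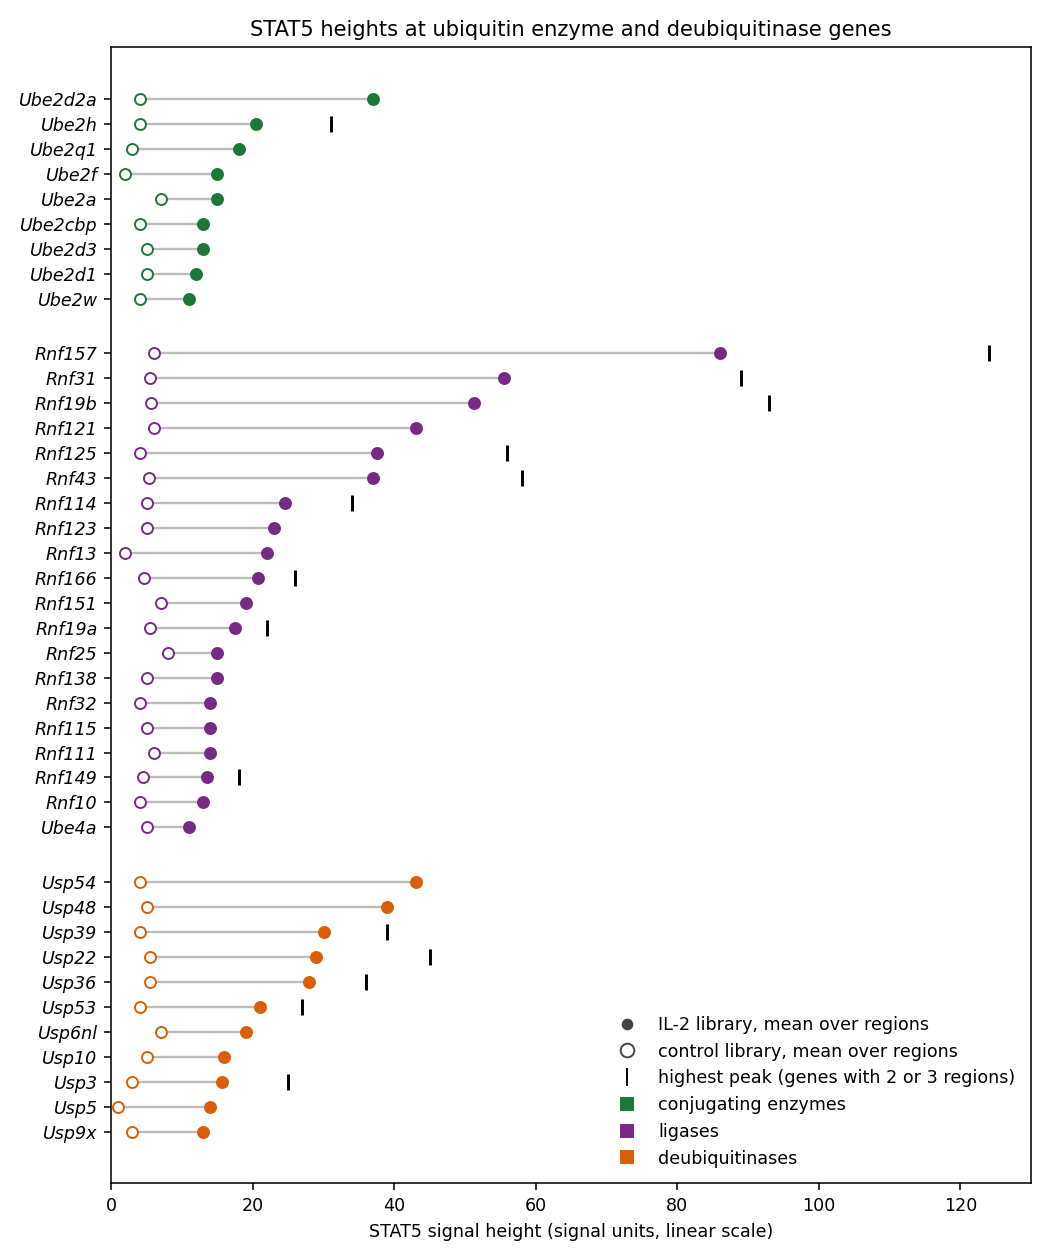
Mean STAT5 height of 40 of the 41 genes in the IL-2 library (filled circles) and the control library (open circles), in signal units on a linear axis, with genes grouped by class and sorted by IL-2 height. Black ticks give the highest peak of genes with 2 or 3 regions. IL-2 heights run from 11 to 86, while control heights stay between 1 and 8.

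The class medians and the places of regions differed in these 2 libraries, with few genes a class, and no difference between classes was tested. Deubiquitinase genes had a median log2 ratio of 1.65 and ligase genes of 1.25, and conjugating enzyme genes had 0.95. Scaled to equal medians these became 0.16, -0.029 and -0.19 in the same order of classes. The order turned among genes that have a region nearest to their own start, with 1.59 for deubiquitinases and 1.95 for ligases. It also turned among genes whose highest peak reached the table's median, with 1.70 for deubiquitinases (7 genes), 2.13 for ligases (9 genes) and 1.86 for conjugating enzymes (2 genes). That filter picks genes by IL-2 height and so favours higher ratios by construction. The median highest peak was 27 for deubiquitinases, 22 for ligases and 15 for conjugating enzymes, beside 23 over all listed genes. All 11 deubiquitinase genes had a ratio of at least 2, as did 15 of the 20 ligase genes and 5 of the 10 conjugating enzyme genes. Over all listed genes this share was 83.8%. A ratio of at least 4 was found at 2 deubiquitinase genes, 6 ligase genes and 1 conjugating enzyme gene, beside 23.1% of all listed genes. Ligase genes had the widest spread of the classes, with IL-2 heights from 11 to 86, and the ranges of all classes overlapped.

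Regions lay within 1 kb of the gene's own start for 8 of 17 deubiquitinase regions (47.1%, 95% Wilson interval 26.2 to 69.0%) and 5 of 11 conjugating enzyme regions (45.5%, 21.3 to 72.0%). For ligases this was 3 of 32 regions (9.38%, 3.24 to 24.2%), and over all assignments of regions to listed genes 22.0%. The intervals cover counting of regions only. They treat regions as independent, although some genes gave more than 1 region (Usp3 gave 2 of the 8 deubiquitinase regions near a start). Positions inside the gene but beyond 1 kb made up 16 of the 32 ligase assignments (50%, against 39.0% over the table), and 10 (31.3%, against 20% over the table) lay past the gene's end. By gene, 7 of 11 deubiquitinase genes, 5 of 10 conjugating enzyme genes and 3 of 20 ligase genes had a region within 1 kb of the start, against 36.6% of all listed genes. Median gene lengths were 50846 bp for deubiquitinases, 29414 bp for ligases and 32947.5 bp for conjugating enzymes, and 20658.5 bp for all listed genes. The part of gene length in these shares was not tested.

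**Figure D2:**
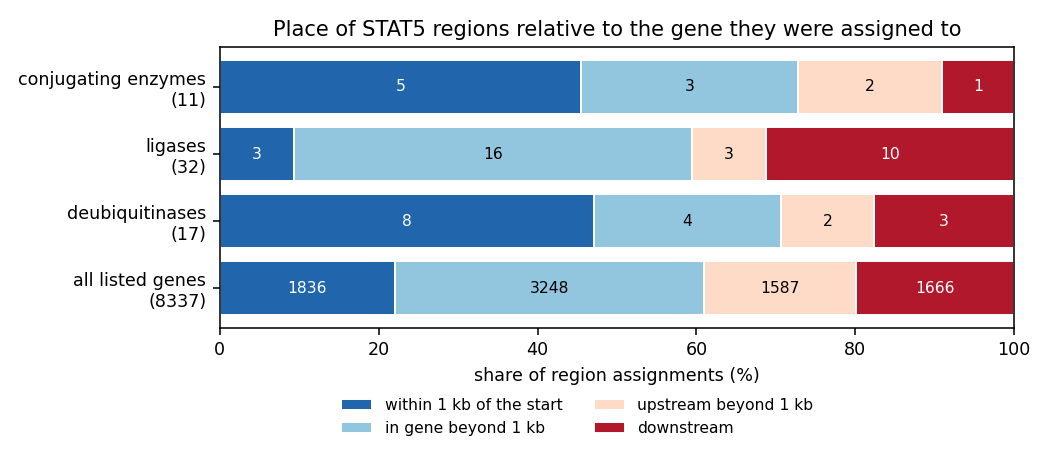
Share of region assignments (%) by place relative to the gene they were assigned to, for the 3 classes and for all listed genes, with the number of assignments in each bar. Within 1 kb of the start lay 5 of 11 conjugating enzyme regions, 3 of 32 ligase regions and 8 of 17 deubiquitinase regions.

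Solved regions close to a start were low, as were most such regions of the whole table. Heights of single regions could be solved from the gene means for 35 of the 60 regions, and 11 of these lay within 1 kb of the start of their own gene. These 11 had IL-2 heights from 12 to 22, with a median of 14 and a control median of 4. The other 5 regions near a start could not be solved, and those of Usp39 (at most 39), Usp36 (at most 36) and Usp3 (at most 25) may have been higher than 22. Over all listed genes, the 1082 solved regions near a start had IL-2 heights from 9 to 153, with a median of 16 and a control median of 4.5. Of these, 758 (70.1%) were at or below 22. This cut is the highest of the 11, so all 11 meet it by construction. The remaining 24 solved regions of the 41 genes had IL-2 heights from 11 to 89. Of these, 10 (41.7%) were above 22, against 40.7% of all such assignments of the table. Left out are unsolved regions beyond 1 kb, among them those of Rnf157 (highest peak 124) and Rnf19b (highest peak 93). Of the 16 regions of the 9 genes with a ratio of at least 4, 1 lay within 1 kb of the start, the weaker of the Rnf31 regions. Deeper in the gene lay 9 of the 16. Over all assignments of the table these places held 22.0% and 39.0%. Among the 11 regions of the genes with a ratio below 2, 4 lay within 1 kb of the start and 1 deeper in the gene. Both sets were picked by ratio, and their places were not tested.

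**Figure D3:**
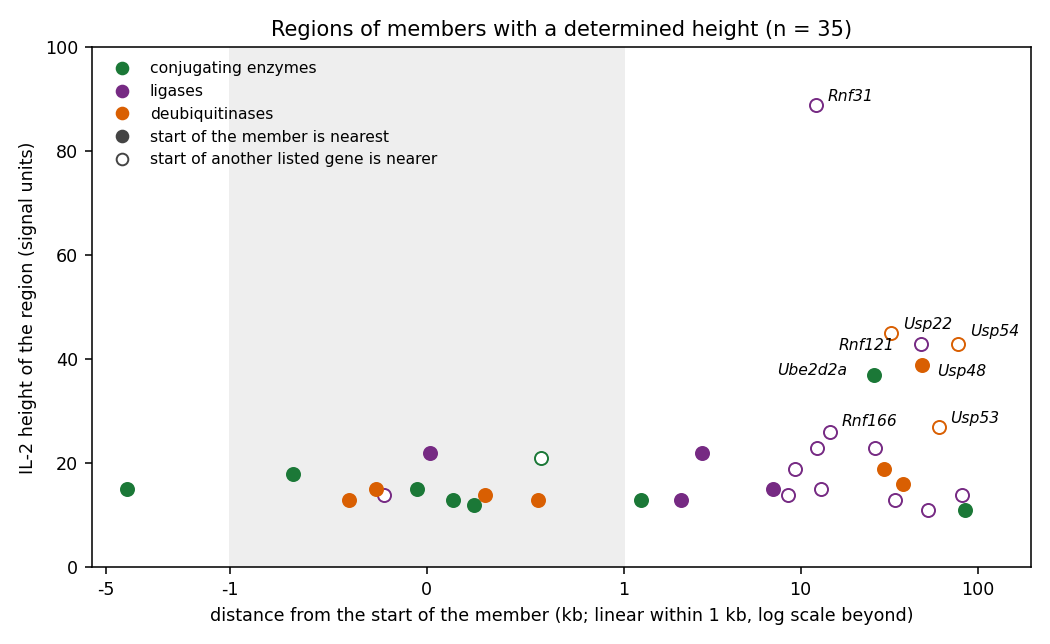
IL-2 height (signal units) of the 35 solved regions against the distance from the start of the gene they were assigned to (kb, linear within 1 kb and log beyond), with colour giving the class. Filled points have that gene's start as the nearest listed start, and open points lie nearer to the start of another listed gene. Solved points within 1 kb of the start (grey band) reach at most 22. Unsolved regions, such as those of Rnf157 (highest peak 124), are not drawn.

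The conjugating enzymes hand ubiquitin to the ligases. Ube2d2a, which with Ube2d1 and Ube2d3 belongs to a group that serves many RING ligases, had the highest value of the class, 37 in the IL-2 library and 4 in the control library (log2 ratio 2.22). Its region lay inside the gene on chromosome 18, 26105 bp from the start. The relatives were much lower, with 12 after IL-2 and 5 in control at Ube2d1 (log2 ratio 0.77), where the region was 238 bp from the start. Ube2d3 had 13 after IL-2 and 5 in control at a region 1257 bp into the gene.

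Ube2h, the partner of a large multi-subunit ligase, was the only conjugating enzyme gene with 2 regions, one upstream and one in the gene. Their mean was 20.5 after IL-2 and 4 in control, and the heights after IL-2 were 31 and 10, although the table does not tell which region had which. Ube2q1 had 18 after IL-2 and 3 in control (log2 ratio 1.52), with a region at -681 bp, and Ube2f had 15 after IL-2 and 2 in control (1.51). Both control heights were below the median of 5.

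Further genes of the class had IL-2 heights of at most 15. Ube2a, which ubiquitylates histone H2B with its ligase partners, had 15 after IL-2 and 7 in control (0.74), the lowest log2 ratio of the class. Ube2w, which attaches ubiquitin to the amino terminus of substrates, had 11 after IL-2 and 4 in control at a region beyond its 3′ end. Ube2cbp is named for binding Ube2c and is known as a ligase (also called UBE3D), and it had 13 after IL-2 and 4 in control.

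The ligases held the strongest regions. Rnf157, a RING ligase studied mainly in neurons, had the highest mean of the 41 genes, 86 after IL-2 and 6 in control (log2 ratio 3.05), at percentile 98.2 of all listed IL-2 heights. Its 2 regions lay inside the gene on chromosome 11 (mm10), at 116377248 and 116406112, which is 35784 and 6920 bp from the start. The IL-2 heights were 124 and 48, not assigned to one or the other by the table. Both regions were assigned to Rnf157 alone, and both heights were far above the control mean. It was the only one of the 41 genes with a ratio of at least 2 after scaling to equal medians, against 5.98% of all listed genes.

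Rnf19b, Rnf125 and Rnf43 also reached a ratio of at least 4. Rnf19b encodes a ligase first described as a lytic factor of natural killer cells, and it had 51.3 after IL-2 and 5.67 in control over 3 regions (log2 ratio 2.40). The highest was 93, and the other 2 summed to 61. They lay at -10271, -8607 and 1825 bp from the start, negative values being upstream, and the same 3 were assigned to 1700086P04Rik, whose start was nearer for the upstream pair. Rnf125, also known as TRAC-1 and described as a promoter of T cell activation, had 37.5 after IL-2 and 4 in control (2.24), with heights of 56 and 19 after IL-2 at 2 regions deep inside the gene. Rnf43, which removes Wnt receptors from the cell surface, had 37 after IL-2 and 5.33 in control (2.02) over 3 regions. Its downstream region could not exceed 15, the highest peak of the gene Supt4a that shares it, so the 2 regions inside Rnf43 had 58 and at least 38.

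Several ligase values belonged to regions at other genes. Rnf31 encodes HOIP, the catalytic subunit of the complex that makes linear ubiquitin chains in NF-κB signalling. Its mean was 55.5 after IL-2 and 5.5 in control (log2 ratio 2.53), but the 2 regions were unlike. The region 18 bp past its own start, also assigned to the proteasome activator genes Psme1 and Psme2, had 22 after IL-2 and 6 in control. The other had 89 after IL-2 and 5 in control and lay 12242 bp from the start of Rnf31, which is past its end and 47 bp inside Irf9, a transcription factor of interferon signalling. Rnf121, a ligase of the early secretory pathway, had 43 after IL-2 and 6 in control (2.13) at its only region, which lay 587 bp inside Il18bp, the gene of the soluble IL-18 inhibitor. The highest Rnf31 value and the only Rnf121 value were thus measured at the start of another listed gene.

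The same held for other ligases. Rnf166 had 20.7 after IL-2 and 4.67 in control (log2 ratio 1.41). Its downstream regions had 26 after IL-2 and 6 in control and 23 after IL-2 and 5 in control, both nearer to the start of Snai3, and the region inside Rnf166 had 13 after IL-2 and 3 in control. Rnf123, which helps degrade a cyclin-dependent kinase inhibitor, had 23 after IL-2 and 5 in control at a region 57 bp inside Amigo3. Rnf111, a ligase of TGF-β signalling, had 14 after IL-2 and 6 in control at a region upstream of the cyclin gene Ccnb2 (-398 bp from its start). Rnf25 had 15 after IL-2 and 8 in control (0.62, the lowest log2 ratio of the 41 genes) at a region 55 bp inside Bcs1l. In all, the start of another listed gene was nearer for 15 of the 32 ligase assignments (46.9%), 4 of 17 deubiquitinase assignments (23.5%) and 1 of 11 conjugating enzyme assignments (9.09%), beside 31.5% over the table. By gene, 9 ligase genes, 1 deubiquitinase gene and 1 conjugating enzyme gene had no region for which their own start was the nearest, against 29% of all listed genes.

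**Figure D4:**
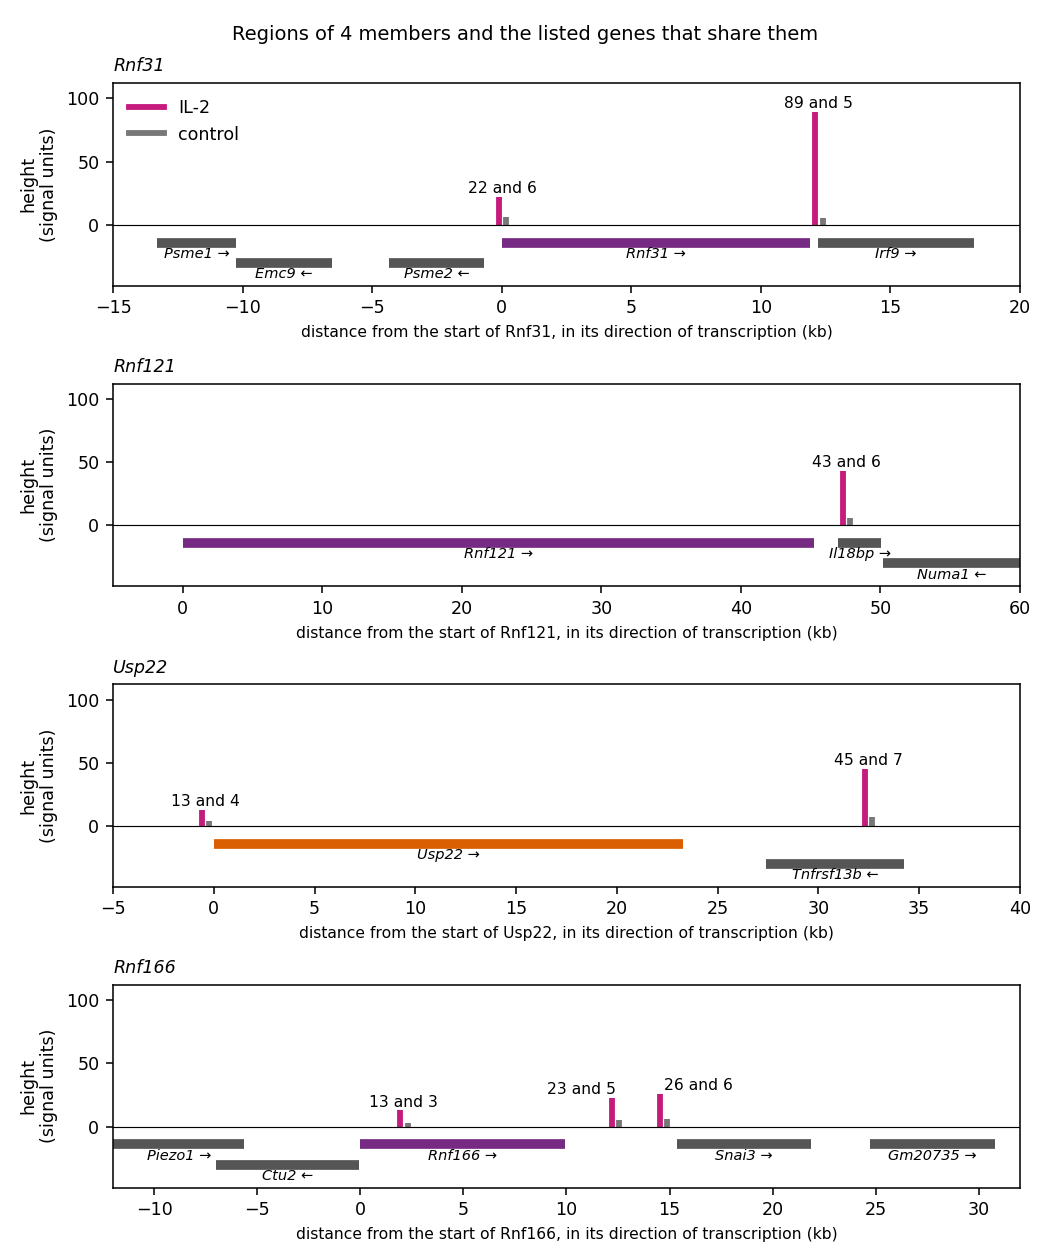
Regions of Rnf31, Rnf121, Usp22 and Rnf166, plotted by distance from the start of each gene in its direction of transcription (kb), with the IL-2 height (pink) and control height (grey) in signal units and the listed genes that share the regions drawn underneath. At Rnf31 the region near its own start had 22 after IL-2 and 6 in control, while that at the start of Irf9 had 89 after IL-2 and 5 in control.

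The remaining ligase genes had moderate or low heights. Rnf13, a ligase of endosomes and lysosomes, had 22 after IL-2 and 2 in control (log2 ratio 1.95) at a region 2782 bp into the gene. Rnf114 had 24.5 after IL-2 and 5 in control over 2 regions in the gene, with IL-2 heights of 34 and 15. Rnf19a, the relative of Rnf19b, had 17.5 after IL-2 and 5.5 in control (1.10), below Rnf19b on both means. Rnf32, Rnf151, Rnf138, Rnf10, Rnf149 and Rnf115 had IL-2 heights from 13 to 19 and log2 ratios from 0.93 to 1.08. Ube4a, which extends ubiquitin chains, had 11 after IL-2 and 5 in control (0.68) at a region inside Atp5l.

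The deubiquitinase genes with the highest means, Usp54 and Usp48, had their only region away from their own start. Usp54 had 43 after IL-2 and 4 in control (log2 ratio 2.42), but its region lay past its end, 5565 bp inside Ppp3cb, the gene of a calcineurin catalytic subunit. Usp48, a nuclear deubiquitinase that acts on the NF-κB subunit RelA, had 39 after IL-2 and 5 in control (2.14) at a region 48403 bp into the gene and assigned to no other. Usp22, the deubiquitinase of the SAGA coactivator, had 29 after IL-2 and 5.5 in control (1.70). Here the region at -397 bp had 13 after IL-2 and 4 in control, and the region inside Tnfrsf13b, which encodes the receptor TACI, had 45 after IL-2 and 7 in control. Usp53 was alike, with 15 after IL-2 and 5 in control at its start and 27 after IL-2 and 3 in control at a region close to the starts of 4933405D12Rik and 1810037I17Rik.

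Other deubiquitinase genes had a region within 1 kb of their own start. Usp39, a splicing factor without deubiquitinase activity of its own, had 30 after IL-2 and 4 in control (log2 ratio 1.96), with IL-2 heights of 39 and 21. Its regions lay at -665 and -2201 bp from the start, the farther one nearer to the start of 0610030E20Rik, and the table does not tell which had which height. Usp36, a nucleolar deubiquitinase, had 28 after IL-2 and 5.5 in control (1.65), with heights of 36 and 20 after IL-2. Its regions lay at 932 and 23524 bp, again without a known height for either. Usp5, which recycles free ubiquitin chains, had 14 after IL-2 and 1 in control (1.66), the lowest control height of the 41 genes, at a region 295 bp from the start. Usp9x, a large X-linked deubiquitinase, had 13 after IL-2 and 3 in control, 566 bp from the start.

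Usp3 had 3 regions, with a mean of 15.7 after IL-2 and 3 in control (log2 ratio 1.37). Its highest peak was 25, and the other 2 regions summed to 22. Usp10, which stabilises p53, had 16 after IL-2 and 5 in control at 37820 bp into the gene. Usp6nl carries the Usp prefix but encodes a GTPase-activating protein of Rab5, not a deubiquitinase, and had 19 after IL-2 and 7 in control, a ratio of exactly 2. These 3 genes had the lower log2 ratios of the class together with Usp9x.

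Of the whole name families, 41 of 180 protein-coding genes in RefSeq were listed (22.8%), against 19.1% of all 21900 protein-coding genes. By class the share was 10 of 37 conjugating enzymes (27.0%), 20 of 88 ligases (22.7%) and 11 of 55 deubiquitinases (20%). All 41 identifiers matched RefSeq. These shares were not tested against each other.

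Other parts of the ubiquitin system were read from lists of 83 genes (activating enzymes, ligases and adaptors of T cells, other deubiquitinases, and ubiquitin-like modifiers). Of these, 32 (38.6%) were listed, beside 19.1% of all protein-coding genes in RefSeq. The lists were picked genes, so this share does not describe the whole ubiquitin system. A ratio of at least 2 was found at 28 of the 32 (87.5%, against 83.8% of all listed genes) and of at least 4 at 5 (15.6%, against 23.1%), and the median log2 ratio was 1.34, beside 1.42 for all listed genes. Fam105b, which encodes OTULIN, the deubiquitinase that removes the linear chains made by HOIP, had 74 after IL-2 and 5.5 in control (log2 ratio 2.91), with a highest peak of 123. All 4 of its regions had its own start as the nearest. Otud5, another deubiquitinase, had 52.5 after IL-2 and 5 in control (2.52), and Cyld, which also cuts linear chains, had 21 after IL-2 and 7 in control. Traf1, an adaptor of TNF receptors, had 64 after IL-2 and 6 in control (2.65), Cblb, a ligase that restrains T cell activation, had 35.5 after IL-2 and 4.5 in control with a highest peak of 122, and Ndfip1, an activator of NEDD4-type ligases, had 27 after IL-2 and 4.25 in control. Ubb, a gene of ubiquitin itself, had 17 after IL-2 and 6 in control. Of 8 genes of activating enzymes for ubiquitin or ubiquitin-like modifiers 2 were listed, and Uba1 and Uba6 were not. Uba3 had 24 after IL-2 and 5 in control at a region nearer to the start of Arl6ip5. Sae1 had 20 after IL-2 and 5 in control.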

How the data were processed

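STAT5 ChIP-seq was measured in 1 library per group. Per the submitters' processing notes, BWA and build mm10 were used, while the sources used here name no peak caller, read depth or scaling between the libraries. The deposited table gives, per the file headers, each gene's mean signal height in either library and its highest signal. The deposited interval counts and 0 or 1 presence columns, other per-gene values of the authors, were also read. Depth and counting error are unknown. No column of other samples was present (0).

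Ratios used a pseudocount of 5 and size rules of 2 and 4. Region positions came from each gene's start, strand and listed distance. Single heights were solved from gene means where these determine them, which was checked on simulated data (Python 3.11.15, NumPy 2.4.6, pandas 2.3.3, SciPy 1.17.1, Matplotlib 3.10.9). RefSeq names and sequences are from GRCm38.p6. A nearest start is that of the nearest listed gene to which the table assigns the region. No test was possible with 1 library a group.

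The genes and lists were chosen with earlier results of these data known. Genes to name were taken per class by largest and smallest ratio, highest peak, number of regions and regions near starts, which covers all 41 genes. Values of a few genes, 1 of the 41 among them, are not reported here, though counts and medians include them. Exon and intron annotation was not used here.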

Additional observations from a re-analysis of the deposited data

How the results depend on the processing

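No paired analysis was possible because there was only 1 library for either condition, and no replicate could be left out. With a pseudocount of 1 the median log2 ratio became 2.00 for the 41 genes and 2.16 for deubiquitinases, and with 10 it became 0.71 for conjugating enzymes and 0.95 for ligases. Scaled to equal medians it was 0.076 for the 41 genes, -0.19 for conjugating enzymes, -0.029 for ligases and 0.16 for deubiquitinases, and the count with a ratio of at least 2 was 1. By construction, equal medians take away an overall difference of the libraries. A restriction to genes with a highest peak at or above the table's median leaves fewer genes by construction. It picks on IL-2 height and so favours higher ratios. The medians were then 1.99 for all 18 such genes, 1.86 for conjugating enzymes (2 genes), 2.13 for ligases and 1.70 for deubiquitinases. The count with a ratio of at least 2 was 18. The size rule of 4 gave 9 genes. Within 5 kb of a start lay 45% of all 60 regions, 81.8% of conjugating enzyme regions and 25% of ligase regions, a wider window by construction. The other 41 recomputed values stayed within the 95% binomial interval of the share or the median, or, for counts, within 1.5 times. All these limits are wide, that for counts included, and those for shares treat regions as independent. The deubiquitinase share near a start, 47.1% in the main setting, was 61.5% over regions nearest to the own start. The ligase median, 1.25 in the main setting, was 1.95 there. Without members that act on other modifiers or lack activity, the conjugating enzyme share was 33.3%, against 45.5% in the main setting. The count with a ratio of at least 2, 31 in the main setting, was 40 with a pseudocount of 1 and 21 with 10. Also within these limits were all values from regions nearest to the gene's own start. The same held on leaving out members that act on other modifiers or lack activity, and on counting Ube2cbp as a ligase without Usp6nl. The last setting was chosen after seeing the data. Over genes with a region nearest to their own start, the ligase median (1.95) stood above that of deubiquitinases (1.59), so the order of the classes depended on this choice as on the restriction by highest peak. Depth is not known, so what it limits cannot be given.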
